A study of Mus musculus with 12 samples.

Results

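A set of 8 genes for surface proteins by which mouse plasmacytoid dendritic cells (pDCs) are recognised was followed through 4 sorted populations of bone marrow dendritic cells. They were chosen by name, with earlier results of these data known. They are Siglech, Bst2, Ly6d, Klra17, Ly6c2, Cd4, Cd8a and Lag3, which makes 8 of the 21754 genes in the deposited table. All 8 passed the filter on low counts, which asks for 1 count or more on average over the 12 libraries and left 15293 genes to test. From pre-cDCs to pDCs, 7 of the 8 rose, by 4.04-fold (Bst2) to 18.4-fold (Cd4), against 11.4% of all genes tested, and Ly6c2 did not pass the test. Siglech is among the 7 and follows its own sort gate here. Ly6d passed the test at the first step, Siglech and Bst2 at the first and the second, and Klra17, Cd4 and Cd8a at the second. Lag3 passed at no single step. With the replicate as a block in the fit, Klra17 also passed at the first and the third step, and Cd4 and Lag3 at the third. Passing at one step and not at another is no test of a difference between them. The second step differed from the first for Ly6d alone, and with the block also for Cd4. No member passed in the test of the third step against the second.

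pDCs are dendritic cells that sense viral nucleic acids in endosomes and secrete type I interferon. They arise in the bone marrow, as do the precursors of conventional dendritic cells (pre-cDCs), and they are told from other dendritic cells by a set of surface proteins. Siglech encodes Siglec-H, a lectin of the sialic acid-binding family that signals through the adaptor DAP12. Bst2 encodes tetherin, the antigen of the antibody PDCA-1, which holds budding virus at the cell surface and is induced by interferon. Ly6d and Ly6c2 encode small proteins of the Ly6 family with a lipid anchor, and Ly6D also marks lymphoid progenitors. Klra17 encodes Ly49Q, an inhibitory receptor for MHC class I. Cd4 and Cd8a encode the coreceptors of T cells for MHC class II and class I, which some mouse dendritic cells also carry, and Lag3 encodes a relative of CD4 that binds MHC class II.

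The cells came from bone marrow of wild-type C57BL/6 mice, an inbred laboratory strain, with no further allele or agent in any group. The sorted CD11c+ populations were Siglec-H-negative pre-cDCs, 2 kinds of Siglec-H-positive precursors, named lo-lo (CCR9lo B220lo) and lo-hi (CCR9lo B220hi), and pDCs (CCR9hi B220hi). There were 3 libraries of each, numbered as replicates, and a replicate number stands for 1 mouse, as the legend of the published sort names individual mice. The labels give no age. Cells bearing lineage markers such as CD3, Ly6G and Ter119 were depleted before sorting. The libraries were made by bulk SCRB-seq, which reads mostly the 3' ends of poly(A) transcripts, and hold 1801463 to 5995971 counts each. Siglec-H was itself a sort gate, so the level of Siglech in pre-cDCs against the other 3 populations follows the sort and is given as a description of it.

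The populations used here are not those on the deposited labels for 8 of the 12 wells of the plate. Wells A1, A5 and A9 were taken as pre-cDCs, A2, A6 and A10 as lo-lo cells, A3, A7 and A11 as lo-hi cells, and A4, A8 and A12 as pDCs. This order comes from a rank match to published source data on 28 transcription factors. All 12 samples named there were matched by exactly 1 well in the order of all 378 gene pairs, while any other well reordered at least 8 pairs. Genes that the match did not use set replicate 3 apart from replicates 1 and 2, although they say nothing of the populations. Xist was at 218 to 596 CPM (counts per 1e+06, scaled by the TMM method) in the 8 libraries of replicates 1 and 2, and at 26.6 to 58.4 CPM in the 4 libraries of replicate 3. The Y-linked gene Ddx3y was at 0.17 to 3.62 CPM in the former and at 19.6 to 62.9 CPM in the latter. When the libraries were grouped by the deposited labels, 0 of the 8 members and 0 of the 15293 genes passed any comparison by edgeR, and 0 members reached an unadjusted p under 0.05. By these labels, Siglech ranged from 276 to 2039 CPM in the pre-cDC group and from 729 to 2992 CPM in the pDC group. Every result below therefore rests on the matched order, and the match rests on expression values.

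The populations were checked against lineage markers. Of the pDC lineage markers outside the members, 5 of 5 measured (Tcf4, Spib, Runx2, Bcl11a and Ccr9) rose from pre-cDCs to pDCs, against 11.4% of all genes tested. Of the cDC lineage markers, 7 of 8, such as Zbtb46 and Csf1r, fell, against 10.4%. Cd209a did not pass (log2 fold change -0.83, SE 0.24, adjusted p = 0.0146 by edgeR). These pDC markers, Ccr9 apart, and at least Zbtb46 of the cDC markers were among the factors of the match, so they do not check it independently. Csf1r was not among them. Ccr9 and the B220 gene Ptprc were gates as well. The summed level of 9 monocyte and neutrophil markers was 3778 to 9410 CPM in pre-cDCs, 4490 to 13973 CPM in lo-lo cells, 8019 to 15807 CPM in lo-hi cells and 2784 to 5059 CPM in pDCs. Neutrophil genes such as S100a8 made up most of this sum, with means of 3949, 4206, 6425 and 2249 CPM in pre-cDCs, lo-lo cells, lo-hi cells and pDCs. Ccr2 and Fn1, which monocytes express, were singled out after their values were seen. Ccr2 was at 444, 166, 140 and 124 CPM and Fn1 at 68.1, 14.5, 8.63 and 5.89 CPM, and both fell at the first step (adjusted p = 1.69e-04 and 3.74e-08) and from pre-cDCs to pDCs. The part of these cells in the results was not tested. In such bulk libraries, fewer cells that carry a transcript and less of it per cell cannot be told apart.

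Siglech rose in 2 large steps and had its smallest difference at the last one. Its level was 276, 443 and 206 CPM in the pre-cDC libraries of replicates 1, 2 and 3, and 835, 1000 and 729 CPM in lo-lo cells. It was 2039, 2367 and 1987 CPM in lo-hi cells and 2537, 2844 and 2992 CPM in pDCs. No library of one population overlapped with the next. The first step follows the sort gate and is given as a description. It came to 2.78-fold (log2 fold change 1.47, SE 0.20, adjusted p = 1.02e-04). Adjusted p-values here and throughout come from the quasi-likelihood test in edgeR, corrected over all genes by the Benjamini-Hochberg method. The second step came to 2.49-fold (log2 fold change 1.32, SE 0.20, adjusted p = 1.92e-04), between 2 populations that were both gated as Siglec-H-positive. From lo-hi cells to pDCs the log2 fold change was 0.39 (SE 0.20) and missed the cutoff of 0.01 (adjusted p = 0.486). The test of the third step against the second did not pass for Siglech (-0.93 on the log2 scale, SE 0.35, adjusted p = 0.819). Measured within each mouse, Siglech stood at 76.7% ± 9.01 (SD, n = 3) of the pDC level in lo-hi cells and at 30.8% ± 5.69 (SD, n = 3) in lo-lo cells.

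Bst2 also rose at the first and the second step. It was at 497, 484 and 361 CPM in pre-cDCs and at 886, 871 and 652 CPM in lo-lo cells. In lo-hi cells it was at 1554, 1419 and 1127 CPM, and in pDCs at 2011, 1900 and 1509 CPM. Replicate 3 was the lowest in all 4 populations, and the ranges of lo-hi cells and pDCs overlapped. Set against the pDCs of the same mouse, the values of Bst2 were close together, at 24.7% ± 0.77 (SD, n = 3) in pre-cDCs, 44.4% ± 1.34 in lo-lo cells and 75.5% ± 1.51 in lo-hi cells. The first step was 1.79-fold (log2 fold change 0.84, SE 0.17, adjusted p = 0.00174) and the second 1.70-fold (log2 fold change 0.77, SE 0.16, adjusted p = 0.00268). The first call was lost without lo-lo replicate 1, lo-lo replicate 2 or pre-cDC replicate 3, and the second without lo-hi replicate 1, lo-hi replicate 2 or lo-lo replicate 3, with log2 fold changes of 0.63 to 0.78 in these fits. The third step had a log2 fold change of 0.40 (SE 0.16, adjusted p = 0.303).

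**Figure D1:**
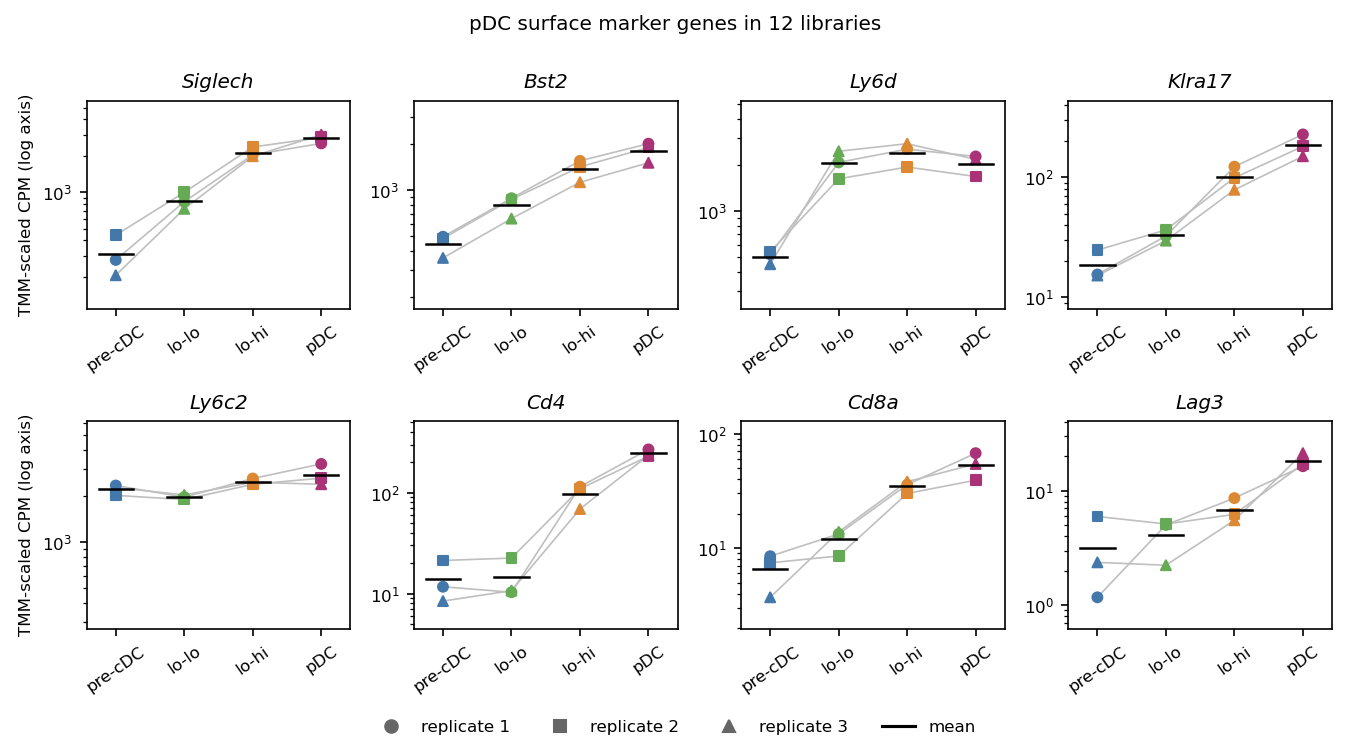
Levels of the 8 members in TMM-scaled CPM on a log axis, one panel per gene and one point per library, with the libraries of a replicate joined by lines across the populations and the mean as a bar. Ly6d is near its pDC level from lo-lo cells on, Cd4 leaves its low level only in lo-hi cells, and Ly6c2 stays between 1888 and 3225 CPM in all 12 libraries.

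The promoters of Siglech and Bst2 are shown because these members rose at both early steps and because Bst2 is a known interferon target. For Siglech, the first of these steps follows its sort gate. RefSeq on GRCm38.p6 gave the 250 bases before the start for 5 of the 8 members (Siglech, Bst2, Klra17, Ly6c2 and Cd8a). Capitals mark the E-boxes CACGTG and CACCTG (E proteins bind E-boxes, which are CANNTG) and the interferon-stimulated response element core (GAAA, any 2 bases, GAAA), each searched on both strands. The Siglech stretch lies at chr7:55767934-55768183 on the plus strand and the Bst2 stretch at chr8:71537473-71537722 on the minus strand.
Siglech: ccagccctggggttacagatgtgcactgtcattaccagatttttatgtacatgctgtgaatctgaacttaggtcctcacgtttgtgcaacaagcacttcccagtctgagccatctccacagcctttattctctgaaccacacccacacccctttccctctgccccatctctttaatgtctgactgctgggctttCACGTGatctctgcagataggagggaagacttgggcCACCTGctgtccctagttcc
Bst2: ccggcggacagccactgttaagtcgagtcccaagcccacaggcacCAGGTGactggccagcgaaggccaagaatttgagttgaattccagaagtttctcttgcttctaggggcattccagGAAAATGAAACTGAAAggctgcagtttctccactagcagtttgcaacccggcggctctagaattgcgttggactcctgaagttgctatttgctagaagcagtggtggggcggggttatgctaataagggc
Siglech holds CACGTG at position -56 and CACCTG at -20, counted back from the start. Bst2 holds CAGGTG, which is CACCTG on the other strand, at -205, and 2 overlapping matches to the response element core at -130 and -124. Of the 32851 mouse promoters of this length, 2.98% hold the response element core, 17.2% hold CACCTG, 6.02% hold CACGTG and 66.2% hold any CANNTG. The windows of Klra17, Ly6c2 and Cd8a hold neither that core nor CACCTG nor CACGTG. A match is a description of these letters and not a bound site.

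Ly6d was the only member that passed the test at the first step alone. It was at 519, 539 and 447 CPM in pre-cDCs, and at 2068, 1616 and 2445 CPM in lo-lo cells. In lo-hi cells it was at 2523, 1928 and 2740 CPM and in pDCs at 2262, 1673 and 2165 CPM. The pre-cDC libraries stood apart from the other 9, and those 9 overlapped between populations. Within each mouse, lo-hi cells were the highest. The first step was 4.07-fold (log2 fold change 2.03, SE 0.16, adjusted p = 2.51e-08). The second had a log2 fold change of 0.23 (SE 0.16, adjusted p = 0.502) and the third of -0.24 (SE 0.16, adjusted p = 0.665). Lo-lo cells thus held 100.3% ± 11.2 (SD, n = 3) of the Ly6d level of pDCs, and lo-hi cells 118% ± 7.81. The test of the second step against the first gave a difference of -1.80 on the log2 scale (SE 0.28, adjusted p = 9.06e-04), so the change of Ly6d was unequal between the steps, and this call was lost without lo-lo replicate 3. Ly6d lies at chr15:74762056-74763620 on GRCm38, minus strand.

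Klra17 was higher after each step in every mouse. Its level was 15.5, 24.8 and 15.2 CPM in pre-cDCs and 32.5, 36.5 and 29.7 CPM in lo-lo cells. It was 123, 99.3 and 78.8 CPM in lo-hi cells and 228, 182 and 150 CPM in pDCs. The populations did not overlap. At the second step it rose 3.08-fold (log2 fold change 1.63, SE 0.20, adjusted p = 9.65e-06). The first step missed the cutoff (log2 fold change 0.86, SE 0.23, adjusted p = 0.0209) and passed it with the mouse as a block (0.87, adjusted p = 0.00223). The third step missed it narrowly (log2 fold change 0.89, SE 0.19, adjusted p = 0.01002), and with the block it passed (0.89, adjusted p = 2.34e-04). Lo-hi cells held 53.7% ± 1.11 (SD, n = 3) of the Klra17 level of the pDCs of their mouse.

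Ly6c2 passed none of the tests between the populations. It was at 2332, 2011 and 2260 CPM in pre-cDCs and at 1958, 1888 and 2023 CPM in lo-lo cells. In lo-hi cells it was at 2590, 2375 and 2449 CPM, and in pDCs at 3225, 2603 and 2376 CPM. Lo-lo cells were the lowest in each mouse. They overlapped with pre-cDCs and lay wholly below lo-hi cells and pDCs, with a log2 fold change of 0.34 from lo-lo to lo-hi cells (SE 0.13, adjusted p = 0.135), and 13.6% of all genes tested had all 3 lo-hi libraries above all 3 lo-lo libraries. The overall test gave an adjusted p of 0.0338, and pDCs exceeded pre-cDCs by 0.31 on the log2 scale (SE 0.13, adjusted p = 0.0780), with all 3 pDC libraries above all 3 pre-cDC libraries, as in 21.5% of all genes tested. Ly6c2 shares sequence with its neighbour Ly6c1, 59.3 kb away, which encodes a second Ly6C protein. In the last 500 bases of its transcripts, 34.8% of the 50-base windows, the read length, also occur in another gene, 252 of 733 of them in Ly6c1. The share was 0.666% for Siglech and 0 for the other 6 members. Summing both Ly6c genes left every call as it was. Ly6c1 itself was at 221 ± 32.0, 195 ± 20.6, 226 ± 17.9 and 276 ± 76.2 CPM (SD, n = 3) in pre-cDCs, lo-lo cells, lo-hi cells and pDCs. Ly6c2 is also a gene of monocytes. Ccr2 and Fn1, singled out above after their values were seen, were highest in pre-cDCs. The other 7 markers of their list summed to 3311 to 8898 CPM in pre-cDCs and 4285 to 13823 CPM in lo-lo cells. In lo-hi cells these 7 summed to 7863 to 15687 CPM, and in pDCs to 2614 to 4975 CPM. The part of such cells in the level of Ly6c2 was not tested.

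Cd4 had the largest change among the members, and its levels did not separate at the first step. Its level was 11.7, 21.3 and 8.45 CPM in pre-cDCs and 10.3, 22.5 and 10.7 CPM in lo-lo cells. It was 115, 109 and 68.9 CPM in lo-hi cells and 268, 230 and 235 CPM in pDCs. Pre-cDCs and lo-lo cells overlapped, and replicate 2 was the highest in both. The log2 fold change between them was 0.10 (SE 0.36, adjusted p = 0.931), and it changed sign without pre-cDC replicate 1 (-0.0042), pre-cDC replicate 3 (-0.17) or lo-lo replicate 2 (-0.33). From lo-lo to lo-hi cells Cd4 rose 6.90-fold (log2 fold change 2.79, SE 0.31, adjusted p = 4.57e-05). From lo-hi cells to pDCs the log2 fold change was 1.32 (SE 0.27, adjusted p = 0.0193), and with the mouse as a block it was 1.35 and passed (adjusted p = 2.61e-05). The second step exceeded the first by 2.69 on the log2 scale (SE 0.59), which missed the cutoff (adjusted p = 0.0299) and passed with the block (2.68, adjusted p = 3.28e-04).

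**Figure D2:**
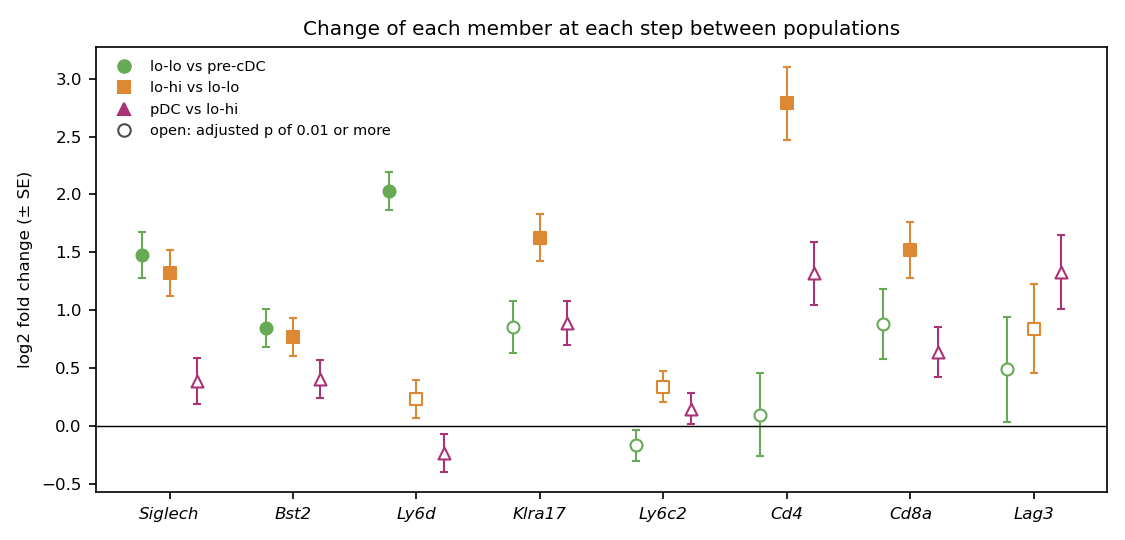
The log2 fold change of each member at the 3 steps between neighbouring populations, with bars for ± SE from the edgeR fit and open symbols where the adjusted p was 0.01 or more. Ly6d has its filled symbol only at the first step (2.03), Cd4 only at the second (2.79), and every symbol of the third step is open.

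Cd8a also rose at the second step. Its level was 8.49, 7.44 and 3.72 CPM in pre-cDCs, 13.3, 8.53 and 13.8 CPM in lo-lo cells, 35.8, 30.0 and 38.0 CPM in lo-hi cells, and 67.4, 39.2 and 54.2 CPM in pDCs. The populations did not overlap, though by a narrow margin at the first and the third step. The pre-cDC values rest on 29, 15 and 11 counts. Cd8a rose 2.87-fold at the second step (log2 fold change 1.52, SE 0.24, adjusted p = 1.19e-04), with log2 fold changes of 0.88 (SE 0.30, adjusted p = 0.0871) at the first and 0.64 (SE 0.22, adjusted p = 0.160) at the third. Cd8b1, the gene of the CD8 beta chain that pairs with the product of Cd8a in T cells, lies 35.9 kb from it. It was at 19.9 ± 8.16 and 17.7 ± 3.12 CPM (SD, n = 3) in pre-cDCs and lo-lo cells, and at 78.3 ± 8.85 and 174 ± 28.7 CPM in lo-hi cells and pDCs. Cd8b1 rose at the second step (log2 fold change 2.15, SE 0.22, adjusted p = 1.11e-06) and again at the third (1.14, SE 0.19, adjusted p = 0.00106).

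Lag3 had the lowest counts of the members. It had 4, 12 and 7 counts in pre-cDCs (1.17, 5.95 and 2.36 CPM) and 17, 15 and 10 counts in lo-lo cells (5.02, 5.12 and 2.23 CPM). It had 39, 12 and 10 counts in lo-hi cells (8.61, 6.21 and 5.51 CPM) and 96, 54 and 49 counts in pDCs (16.3, 17.1 and 21.3 CPM). A library with 4 counts allows 1.09 to 10.2 by the exact Poisson interval (95%, counting error only), so the low stages cannot be ranked. The pDC libraries stood above all others, and lo-hi cells stood above lo-lo cells but overlapped with pre-cDCs. From pre-cDCs to pDCs Lag3 rose 6.32-fold (log2 fold change 2.66, SE 0.40, adjusted p = 2.75e-06), and the log2 fold change was 3.32 without pre-cDC replicate 2 and 2.20 without pre-cDC replicate 1. From lo-lo to lo-hi cells it was 0.84 (SE 0.38, adjusted p = 0.208), and the third step differed from this by 0.49 (SE 0.62), which did not pass. From lo-hi cells to pDCs the log2 fold change was 1.33 (SE 0.32, adjusted p = 0.0206), and with the mouse as a block 1.31 (adjusted p = 0.00440). Lag3 lies at chr6:124904361-124911705 and Cd4 at chr6:124864692-124888221, both on the minus strand of GRCm38, 16.1 kb apart with 0 protein-coding genes between them.

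CD4, CD8 and LAG-3 are also found on T cells, and other T cell genes differed in level. Thy1 had means of 10.2, 14.7, 17.7 and 13.0 CPM in pre-cDCs, lo-lo cells, lo-hi cells and pDCs. Lat had means of 6.53, 4.96, 8.96 and 8.81 CPM in the same order. Both lay within the range of the Lag3 means, 3.16 to 18.2 CPM. The part of T cells in the levels of the members was not tested. Cd3d, Cd3e and Cd3g, which encode chains of the CD3 complex, had means of at most 2.69, 0.39 and 1.68 CPM in any population. Of 8 T cell markers tested, only Cd8b1 passed at any step. The sum of the T cell markers other than Cd8b1 was 17.4 to 32.5 CPM in pre-cDCs, 20.5 to 26.1 in lo-lo cells, 28.5 to 38.6 in lo-hi cells and 22.1 to 28.8 in pDCs. With Cd8b1 the sum rose from 34.8 to 48.3 CPM in pre-cDCs to 178 to 228 CPM in pDCs. NK cell markers summed to 16.9 to 51.5 CPM in pre-cDCs, 10.6 to 42.5 in lo-lo cells, 20.4 to 40.9 in lo-hi cells and 9.98 to 16.3 in pDCs, and 0 of the 4 tested passed. Eomes was at 0 in lo-hi cells and pDCs, and Klrb1c and Prf1 were at 0 in pDCs. The B cell markers Cd79a, Cd79b, Ms4a1, Pax5, Ebf1 and Vpreb1 summed to 64.2 to 103 CPM in pre-cDCs, 63.0 to 91.3 in lo-lo cells, 103 to 142 in lo-hi cells and 101 to 123 in pDCs. These 6 genes were set apart from their list after values were seen. Their sum did not overlap between lo-lo and lo-hi cells, the step at which 5 members rose, and Cd79b alone of the 6 passed there (log2 fold change 0.75, SE 0.18, adjusted p = 0.00717). Their part in the results was not tested.

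Taking the members as a set, 7 of 8 passed the overall test of the 4 populations, against a background of 19.9% of all genes tested. From pre-cDCs to lo-lo cells, 3 of 8 rose (Siglech, which follows its gate here, Bst2 and Ly6d), against 1.61% of all genes. From lo-lo to lo-hi cells, 5 of 8 rose (Siglech, Bst2, Klra17, Cd4 and Cd8a), against 2.33%. The sum of the B cell markers given above was also higher there, but of them only Cd79b passed. Their part was not tested. From lo-hi cells to pDCs, 0 of 8 passed by edgeR, against 0.961% of all genes in either direction. An unadjusted p under 0.05 was reached by 5 of 8, against 11.3% of all genes. DESeq2 called 2 of 8 (Klra17 and Cd4), against 2.07%, and the fit with the mouse as a block called 3 of 8 (Klra17, Cd4 and Lag3), against 2.26%. From pre-cDCs to pDCs, 7 of 8 rose (background 11.4%). The median log2 fold change of the members was 0.85, 1.08 and 0.52 at the 3 steps, beside 0.04, 0.01 and 0.03 over all genes tested. The members were chosen as pDC markers, with earlier results of these data known. These counts therefore describe them and are no independent evidence of their direction.

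Siglech, Klra17 and Cd8a rose through all 4 populations with no overlap between neighbours, a pattern that 1.09% of all genes tested showed. For Siglech, the gap between pre-cDCs and lo-lo cells follows its sort gate. In the test of the second step against the first, only Ly6d passed (background of lower genes 0.464%), and with the block also Cd4 (background in either direction 2%). In the test of the third step against the second, 0 of 8 passed by edgeR (background 0%), and 4 had an unadjusted p under 0.05, against 5.2% of all genes. DESeq2 called 0 of 8 (background 0%), and the block fit 0 of 8 (background 0.0262%). Cd4 had the largest difference there (-1.47 on the log2 scale, SE 0.50, adjusted p = 0.731).

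**Figure D3:**
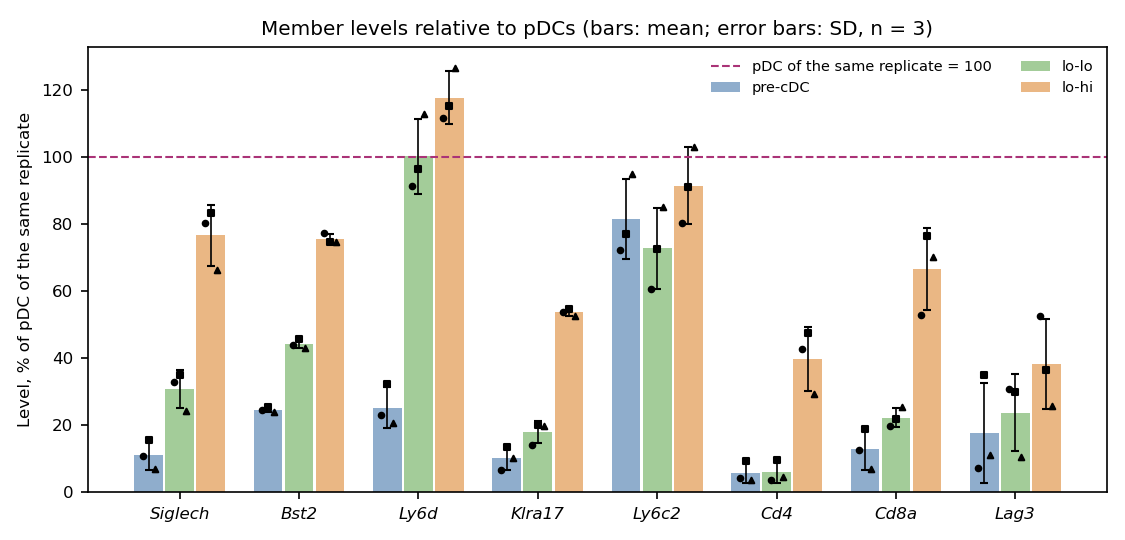
Level of each member as a percentage of its level in the pDC library of the same replicate, with bars for the mean, error bars for the SD (n = 3) and points for the replicates. In lo-lo cells Ly6d is already at 100.3% and Cd4 still at 6.07%, and in lo-hi cells the other members lie between 38.3% (Lag3) and 91.5% (Ly6c2).

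Within each mouse, the members reached their pDC level to unequal degrees. In pre-cDCs, Cd4 stood at 5.74% ± 3.08 (SD, n = 3) of the pDC level, Klra17 at 10.2% ± 3.43, Siglech at 11.1% ± 4.35, Cd8a at 12.8% ± 6.07, Lag3 at 17.7% ± 15.0, Bst2 at 24.7% and Ly6d at 25.3% ± 6.12. In lo-hi cells, Lag3 stood at 38.3% ± 13.5, Cd4 at 39.8% ± 9.42 and Cd8a at 66.6% ± 12.2. From Klra17 to Ly6d, neighbours in the pre-cDC order differed by less than the SD of at least 1 of them.

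The adaptors and ligands of the members moved in part. Of 10 such genes, 0 passed at the first step, 4 rose at the second, 0 passed at the third and 5 rose from pre-cDCs to pDCs. Over all genes tested, 3.16% passed at the first step and 0.961% at the third. Those that rose made up 2.33% at the second step and 11.4% from pre-cDCs to pDCs. The 10 genes were chosen with earlier results of these data known, so the counts are descriptions. H2-Aa and H2-Ab1, the chains of the MHC class II molecule that CD4 and LAG-3 bind, rose at the second step by 1.82 (SE 0.30, adjusted p = 0.00298) and 1.60 (SE 0.28, adjusted p = 0.00304) on the log2 scale. H2-K1, a class I gene, rose there by 0.99 (SE 0.16, adjusted p = 1.31e-04), and Hcst, the gene of the adaptor DAP10, by 0.86 (SE 0.20, adjusted p = 0.00507). Tyrobp, the gene of DAP12, rose from 2167 ± 259 CPM in pre-cDCs to 3846 ± 646 CPM in pDCs (SD, n = 3, adjusted p = 5.57e-05), and Syk, a kinase downstream of it, rose 2.22-fold (adjusted p = 2.67e-06). Lck, the kinase that CD4 and CD8 carry in T cells, was at 10.7 ± 4.15, 22.3 ± 3.70, 16.8 ± 6.43 and 7.90 ± 1.94 CPM (SD, n = 3) in pre-cDCs, lo-lo cells, lo-hi cells and pDCs. Its log2 fold change was 1.02 at the first step (SE 0.27, adjusted p = 0.0213) and -0.54 from pre-cDCs to pDCs (SE 0.30, adjusted p = 0.183), and neither passed. Fgl1, a soluble ligand of LAG-3, had 2 to 5 counts per population.

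Other surface genes of pDCs, 17 in all, gave 9 higher at the first step, 10 at the second, 2 at the third and 14 from pre-cDCs to pDCs, where 1 was lower. The shares higher over all genes tested were 1.61%, 2.33%, 0.118% and 11.4% in the same order, and 10.4% were lower from pre-cDCs to pDCs. Ccr9 and the B220 gene Ptprc are among the 17 and were sort gates. The 17 were chosen with earlier results of these data known. Their counts describe them and are no independent evidence of their direction. Epha2, a receptor tyrosine kinase, had a course like that of Ly6d, with a rise of 1.69 (SE 0.18, adjusted p = 8.51e-07) at the first step and values of 0.30 and -0.21 after it. Cxcr3, a chemokine receptor, and Ly6a, the gene of Sca-1, passed at the second step and at neither other, by 1.75 (SE 0.25, adjusted p = 4.91e-05) and 1.63 (SE 0.25, adjusted p = 4.43e-04). Ccr9, a gated marker, and Cd209d, a C-type lectin, were the 2 that rose at the third step, by 0.996 (SE 0.17, adjusted p = 0.00139) and 0.76 (SE 0.16, adjusted p = 0.00791). Cd81, a tetraspanin, was the one that fell from pre-cDCs to pDCs, by 1.31 on the log2 scale (SE 0.32, adjusted p = 0.00204).

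**Figure D4:**
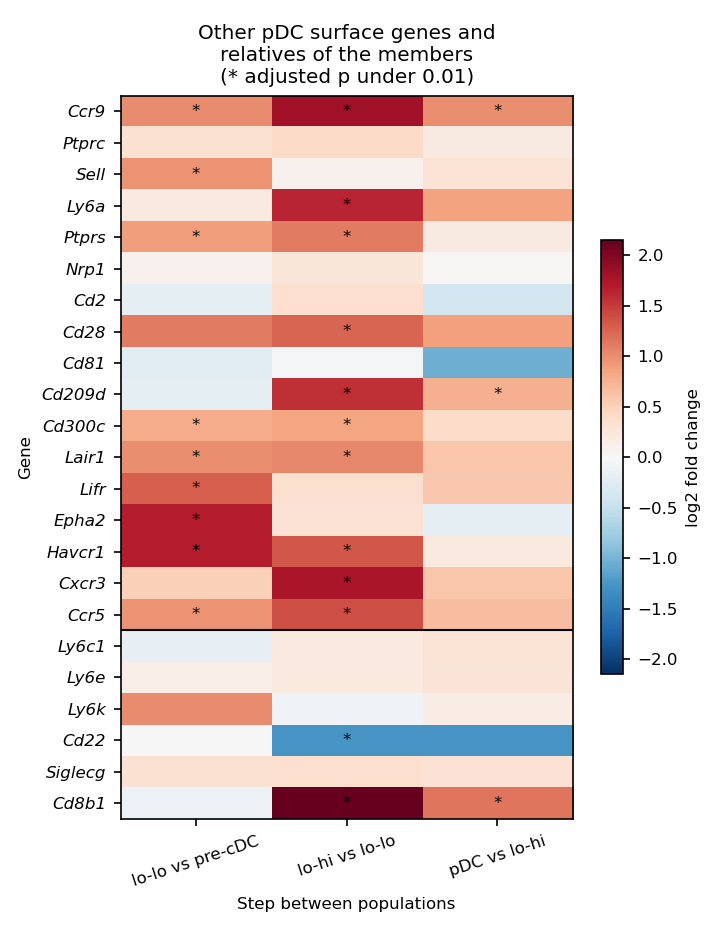
Colours give the log2 fold change at the 3 steps for the 17 other pDC surface genes (above the line) and for the relatives of the members with a mean of at least 10 CPM (below it), with a star where the adjusted p was under 0.01. Stars stand in 9, 10 and 2 of the 17 upper rows, where 1.61%, 2.33% and 0.118% of all genes tested were higher. The 17 were chosen with earlier results of these data known. Epha2 has its star at the first step alone, as Ly6d had its call.

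Relatives of the members in the Ly6, Siglec, Ly49 and CD8 families were also followed. Of 20 such genes, 16 were tested, of which 5 were higher in pDCs than in pre-cDCs (background 11.4%). Another 2 of the 16 were lower, which is near the background of 10.4%. Those higher were Cd8b1 (8.98-fold), Ly6a (6.59-fold), Ly6k (2.17-fold), Siglecg and Ly6e (1.56-fold), of which Cd8b1 and Ly6a also rose at the second step. The difference from the members was not tested, and the relatives were listed with earlier results of these data known. The 2 that fell were Cd22, a B cell Siglec, by 2.52 on the log2 scale (SE 0.32, adjusted p = 3.95e-07), and Cd33, by 0.93 (SE 0.24, adjusted p = 0.00395). The other Ly49 genes were near 0: Klra1, Klra2, Klra3, Klra5, Klra7, Klra8 and Klra9 had means of at most 1.08 CPM in any population. The windows at the 3' end of Klra17 occur in 0 other genes of the annotation.

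Over the 12 libraries, Klra17 followed Bst2 (Pearson's r = 0.97 of log2 CPM + 1), Cd4 (0.97) and Siglech (0.95), whereas Ly6d and Cd4 were less alike (0.54) and Ly6d and Ly6c2 least (0.26). These are descriptions over libraries that share mice and populations. Among 10807 genes whose mean count was 10 or more, the 3 most like Siglech were Sdc4, Prkca and Cmah (r = 0.996, 0.996 and 0.995), and those most like Bst2 were Dnajc7, Abhd6 and Vmac (0.99, 0.988 and 0.987). Ly6d was most like Epha2, Ptprcap and Emid1 (0.975, 0.973 and 0.971) and Klra17 most like P2ry14, Pla2g16 and Cd38 (0.994, 0.994 and 0.993). For Cd4 they were Klk1, Cd8b1 and Klk1b27 (0.994, 0.992 and 0.992), and for Cd8a Cd37, Eepd1 and Tespa1 (0.984, 0.984 and 0.983). For Lag3 they were Eif4a2, Igsf9 and Btrc (0.969, 0.965 and 0.96), and for Ly6c2 Creb3, Hint2 and Gm20708 (0.968, 0.966 and 0.965).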

How the data were processed

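The authors filtered barcodes with zUMIs, mapped reads with STAR to GRCm38 and deposited a table of unnormalized counts, whole numbers for each gene in each well. Whether these are reads or molecular identifiers is not given in the sources used here. TMM gave the scaling of these counts. Genes averaging 1 count or more entered the quasi-likelihood test (edgeR 4.0.16, R 4.3.3, robust, 12 libraries in 1 fit, no covariates), with Benjamini-Hochberg adjustment over 15293 genes at 0.01. The code was tested on simulated data.

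Groups follow wells matched to published source data and not the deposited labels, which were an alternative. The other alternatives were DESeq2 1.42.0, its size factors, no or another filter, a cutoff of 0.05, the replicate block, fewer libraries, summed Ly6c genes and leaving out each library. Same-numbered libraries share a mouse by the study's legend, and their deviations correlated at a mean of 0.13 (18 pairs, -0.18 to 0.35) against -0.07 for other pairs. The members and gene lists were chosen with earlier results of these data known, as were the genes named by likeness, the 3 most correlated with each member. A count of 3, the floor, is 0.5 to 1.67 CPM, for counting error only. Genes were placed by GENCODE vM21 on GRCm38. Trac and Irf8 were not analysed here. One marker gene is not reported here.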

Additional observations from a re-analysis of the deposited data

How the results depend on the processing

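Grouped by the deposited labels, the number of members called was 0 in every comparison, against 7 over all 4 populations, 3 and 5 at the first 2 steps and 7 from pre-cDCs to pDCs. From lo-hi cells to pDCs it was 0 as reported (147 over all genes), 2 by DESeq2 (200) and 3 with the replicate block (346). It was also 3 with no filter on low counts, a cutoff of 0.05 or only the 6 libraries compared. For these settings and for leaving out libraries, counts over all genes are not given. Member counts there cannot be set against a background. Leaving out 1 library gave 0 to 3, with 3 without pre-cDC replicate 2, 2 without pre-cDC replicate 3, and 1 without lo-lo replicate 2 or pDC replicate 3. For the second step against the first it was 1 as reported (99 over all genes), 2 by DESeq2 (138) and 2 with the block (306). With no filter or a cutoff of 0.05 it was also 2. Leaving out 1 library gave 0 to 2, with 0 without lo-lo replicate 3 and 2 without lo-lo replicate 2 or lo-hi replicate 3. For the third step against the second it was 1 with no filter. At the first step all genes called were 483, and 743 with the block. The change of Cd4 from pre-cDCs to lo-lo cells, 0.10 on the log2 scale, was -0.0042 without pre-cDC replicate 1, -0.17 without pre-cDC replicate 3 and -0.33 without lo-lo replicate 2, and lay between -0.33 and 0.46 over all such fits. Apart from the calls of Klra17, Cd4 and Lag3 given in the report, the replicate block changed no call of a member. Only replicates 1 and 2, an alternative added after seeing the data, kept all counts within 1.5 times. The causes were not tested. Low counts limit Lag3 and the early levels of Cd8a and Cd4.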
